A study of Bos taurus with 6 samples.

Results

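The genes of vascular endothelial growth factor (VEGF) and angiopoietin signaling were followed in intramuscular fat (IMF) of Qinchuan steers and bulls. The set consists of 10 genes chosen by symbol. They are the VEGF ligands VEGFA, VEGFB and VEGFC, the VEGF receptors FLT1, KDR and FLT4, the angiopoietins ANGPT1 and ANGPT2, and the TIE receptors TEK and TIE1. All 10 were among the 25444 genes of the mRNA count table, and all 10 had at least 10 counts over the libraries, as did 14540 genes in all.

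All cattle were Chinese Qinchuan males of a single sire, weaned at 3 months, kept on the same diets and slaughtered at 24 months, and the steers differed by surgical castration at 6 months. IMF was dissected from the sternomandibularis muscle, so the RNA came from a mixture of fat cells, vessels, stroma and immune cells. Skeletal muscle markers were also detected, at 0.262% of mRNA counts in steers and 0.509% in bulls. The mRNA came from 1 library of steers and 1 of bulls, each pooled over 6 animals according to the series description, although the sample labels give 3. Small RNA came from 2 libraries per group, each pooled over 3 animals by the same description and from 1 animal by the labels.

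VEGF ligands are secreted proteins that make endothelial cells divide, migrate and loosen their junctions. KDR is the main receptor for that signal in blood vessels, FLT1 binds VEGFA and VEGFB and can act as a trap for them, and FLT4 with its ligand VEGFC serves mainly the lymphatic vessels. Angiopoietins act on TEK, with ANGPT1 as the agonist that stabilizes vessels and ANGPT2 as a ligand that often opposes it, while TIE1 is a partner receptor of TEK. In fat, a dense capillary bed supplies fatty acids and oxygen to the adipocytes, which are themselves a source of VEGFA.

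Of the ligands, VEGFA was the gene of the set that differed most between the pools, at 165 counts in the steers library and 299 in that of bulls. After scaling by median-of-ratios size factors its level was 1.97-fold lower in steers, a log2 fold change (log2FC, steers over bulls) of -0.98 with a 95% counting interval of -1.26 to -0.70. VEGFC was on the other side, at 137 counts against 83 in bulls, a log2FC of 0.60 (0.20 to 1.01). VEGFB, whose product binds FLT1 but not KDR, had the most counts of the set, 874 in steers and 676 in bulls. Its log2FC was 0.25 (0.10 to 0.40). The 3 ligand genes together had 1176 and 1058 counts and differed by 0.03 on the log2 scale (-0.09 to 0.15). Thus VEGFA supplied 14.0% of the ligand counts in steers and 28.3% in bulls, against 74.3% and 63.9% for VEGFB.

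**Figure D1:**
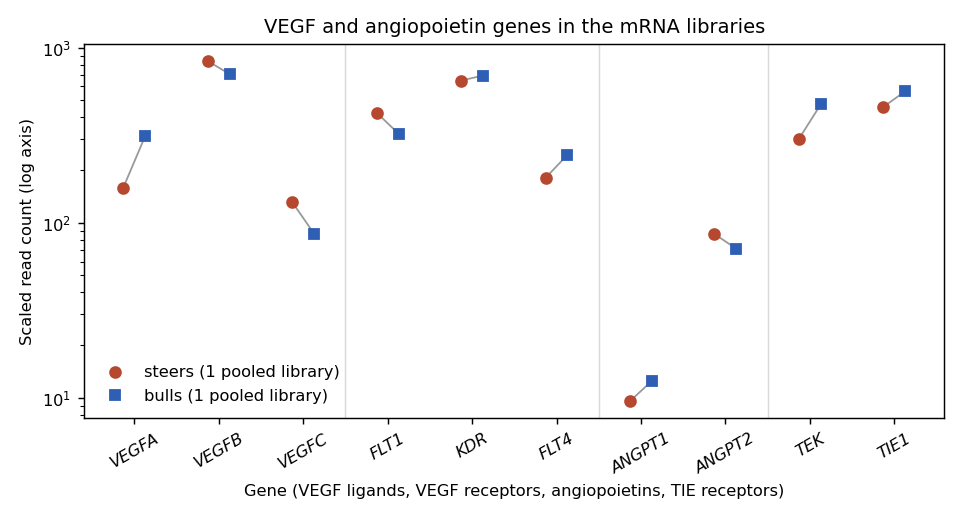
Read counts of the 10 genes divided by the median-of-ratios size factor of their library (log axis), with steers as circles and bulls as squares, 1 pooled library each and no error bar since there is no replicate. VEGFA lies near 158 in steers and 312 in bulls, and ANGPT1 near 10 and 13, the lowest pair.

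Of the VEGF receptors, KDR did not differ beyond counting error, its counts being 676 in steers and 663 in bulls for a log2FC of -0.09 (-0.25 to 0.06). FLT1 was higher in steers at 443 against 309 counts, a log2FC of 0.40 (0.18 to 0.61). FLT4 was lower in steers at 188 against 234 counts, a log2FC of -0.44 (-0.72 to -0.15). The receptors therefore spread to either side of KDR, while their summed counts of 1307 and 1206 gave a log2FC of -0.01 (-0.12 to 0.11). In RefSeq's annotation of ARS-UCD2.0, the miRNA genes MIR2300A and MIR2300B lie within FLT1.

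The TIE receptors were both lower in steers. TEK had 314 counts in steers against 455 in bulls, a 1.58-fold lower level and a log2FC of -0.66 (-0.87 to -0.45). TIE1 had 478 and 540 counts and a log2FC of -0.30 (-0.48 to -0.12). TEK overlaps IFT74 in the RefSeq annotation and the use of strand in counting is not given in the sources used here, but IFT74 had only 52 and 43 counts.

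The 2 angiopoietins of the set were its scarcest genes. ANGPT2 had 90 counts in steers against 68 in bulls, a log2FC of 0.28 (-0.19 to 0.76), and ANGPT1 had 10 and 12 counts, a log2FC of -0.39 (-1.75 to 0.95). A difference was not detected in either. The interval of ANGPT2 runs from 0.878-fold to 1.69-fold, and that of ANGPT1, which rests on 22 counts, from 0.296-fold to 1.93-fold. Both genes overlap a gene in RefSeq that had more counts. For ANGPT2 this was MCPH1 with 173 and 123 counts, and for ANGPT1 the pseudogene LOC614209 with 92 and 65. Their counts are uncertain for this reason, whereas TEK had more counts than the IFT74 it overlaps. Another angiopoietin gene, ANGPT4, lies outside the set, in the list of partner genes below, and is named after its values were seen. It was more abundant than both, with 386 reads for steers against 417 for bulls. Its log2FC was -0.23, and the counting interval left out equal levels (-0.44 to -0.03).

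Over the set, 0 of 10 genes passed a 2-fold difference, where 18.3% of the 14540 genes did, 6.73% of them higher and 11.5% lower in steers. The counting interval left out equal levels for 7 of the 10 genes, 3 higher (VEGFB, VEGFC and FLT1) and 4 lower in steers (VEGFA, FLT4, TEK and TIE1). This share is to be read against 52.4% of all genes, with 27.4% higher and 25.1% lower. The median log2FC of the set was -0.20, compared with 0.01 for all genes, whose middle 50% ran from -0.42 to 0.36. With 1 pooled library per group there is no replicate check and no p-value, and the intervals allow for counting error alone. PCR copies of a molecule, if counted as separate reads, would make these intervals too narrow. If the pools are assumed to vary by a biological coefficient of variation of 0.2, VEGFA alone kept an interval without equal levels (-1.83 to -0.13). At an assumed 0.4 the interval of VEGFA included them as well (-2.60 to 0.64). The small RNA libraries had a common coefficient of 0.339 in edgeR, and none can be estimated for the mRNA pools. Scaling by total counts moved the median of all genes to -0.23, and VEGFA, at -1.22, then passed 2-fold. Under it VEGFB (0.01), VEGFC (0.36) and FLT1 (0.16) had intervals that included equal levels.

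**Figure D2:**
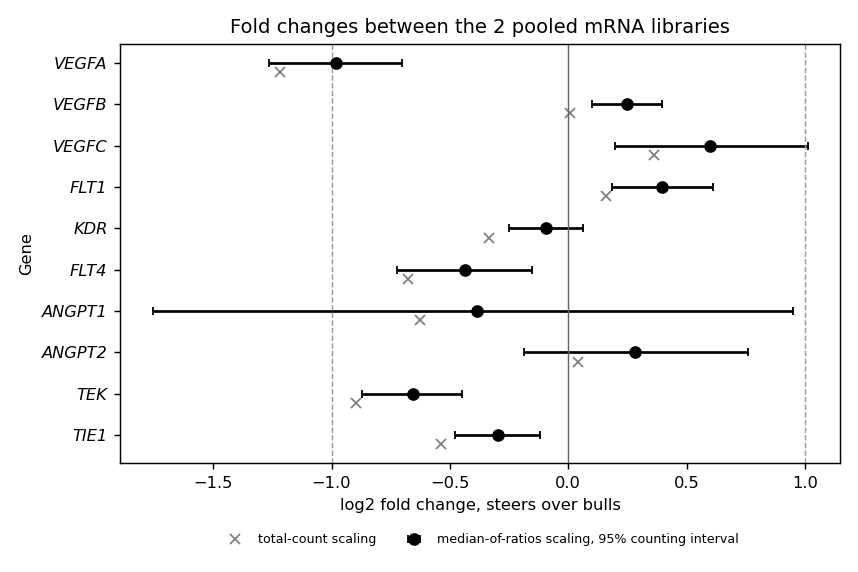
The log2 fold change of each gene (steers over bulls) with its 95% counting interval as a bar, and crosses for scaling by total counts; dashed lines mark 2-fold. VEGFA reaches -0.98 and VEGFC 0.60, and the intervals of KDR, ANGPT1 and ANGPT2 cross 0.

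The change of a count ratio between the libraries depends neither on the scaling nor on gene length, so 10 pairs were compared in this way. The ratios themselves do depend on gene length, which was not available here. For each pair the ratio of counts in steers was divided by that in bulls, with a 95% exact counting interval. VEGFB outnumbered VEGFA by 5.30 in steers and 2.26 in bulls, a change of 2.34 (1.88 to 2.92). VEGFC stood at 0.83 of VEGFA in steers and 0.278 in bulls, the largest change of the pairs at 2.99 (2.12 to 4.23). The ratio of KDR to its ligand VEGFA was 4.10 in steers and 2.22 in bulls, a change of 1.85 (1.48 to 2.31). These 3 pairs share VEGFA as their denominator, so they are not separate measurements.

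Among the receptors, FLT1 relative to KDR changed by 1.41 (1.17 to 1.69) and FLT4 relative to KDR by 0.788 (0.628 to 0.988). TIE1 relative to TEK changed by 1.28 (1.06 to 1.56). Relative to PECAM1, an adhesion molecule of endothelial cells, TEK changed by 0.566 (0.485 to 0.659), KDR by 0.836 (0.743 to 0.940) and FLT1 by 1.18 (1.01 to 1.37). The KDR value depends on the marker chosen, since relative to the summed counts of 18 endothelial markers KDR was at a log2FC of -0.08 (-0.24 to 0.08). For ANGPT2 relative to ANGPT1 the ratio was 9 in steers and 5.67 in bulls, and its change of 1.59 had an interval of 0.588 to 4.36. Several pairs share KDR or PECAM1, so these are not separate measurements either. For single genes, the counting intervals of 52.4% left out equal levels. Such a share was not computed for gene pairs in general. In all, 9 of the 10 intervals of the ratio changes left out 1. Only 2 did when a biological coefficient of variation of 0.2 was assumed for each gene and pool, VEGFB and VEGFC relative to VEGFA. The lower bounds of these 2 were then 1.04 and 1.28. Larger coefficients, such as the 0.339 of the small RNA libraries, were not tried for the ratios.

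**Figure D3:**
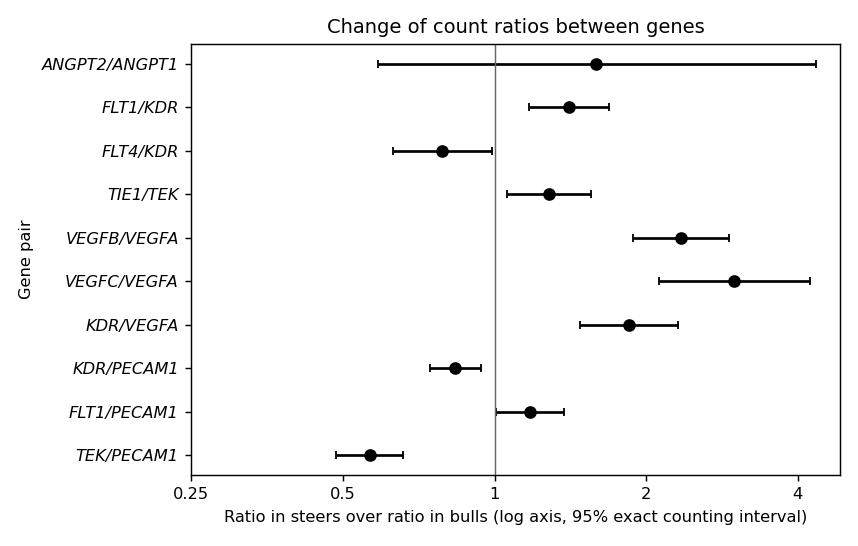
Count ratio of 2 genes in steers divided by the same ratio in bulls (log axis), with 95% exact counting intervals as bars and a line at 1 for no change. VEGFC/VEGFA lies at 2.99 and TEK/PECAM1 at 0.566, and ANGPT2/ANGPT1 crosses 1.

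The vessels themselves were compared with 18 endothelial marker genes. They had 16198 counts in the steers pool and 15022 in the bulls pool, or 0.128% and 0.152% of all counts. Shares of counts, here and below, depend on the library totals, and scaling by these totals put the median of all genes at -0.23. Their median log2FC was -0.15, and 2 of the 18 passed 2-fold, SOX7 at -1.12 and TAL1 at -1.06, both low in counts. The most abundant were PECAM1 at 0.16 (0.10 to 0.23) and ENG, a co-receptor of the TGF-beta family, at 0.17 (0.11 to 0.24). These were the only 2 of the 18 whose counting interval lay above 0, while 7 lay below it. Among the 7 was VWF, the gene of von Willebrand factor, at -0.19 (-0.26 to -0.12), which is named after its value was seen. In whole tissue, fewer cells of a type and less RNA per cell cannot be told apart. When the summed counts of these markers were used for scaling, an alternative chosen after seeing the data, the log2FC was -0.97 for VEGFA, -0.64 for TEK, -0.28 for TIE1, 0.41 for FLT1 and -0.08 for KDR. The factors of this scaling (1.04 and 0.963) hardly differed from the median-of-ratios factors (1.04 and 0.959). The part of vessel content in these values was not tested.

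Of 5 lymphatic markers, 0 passed 2-fold and 4 were below 0, with a median of -0.26. The hyaluronan receptor LYVE1 was at -0.18 (-0.28 to -0.07) and CCL21, a chemokine of lymphatic vessels, at -0.79 (-0.99 to -0.60), beside -0.44 for the lymphatic receptor FLT4. Of 9 genes of mural cells, the pericytes and smooth muscle around vessels, 1 passed 2-fold. This was MCAM at -1.26 (-1.29 to -1.23), while the contractile gene TAGLN was at 0.45 (0.38 to 0.52) and the median was 0.02. By counting interval 4 of the 9 were higher and 4 lower in steers. The other contractile genes, named after their values were seen, were lower, ACTA2 at -0.66, MYH11 at -0.37 and CNN1 at -0.66.

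Of the other genes that bind VEGF ligands or are such ligands, the co-receptor NRP2 was past 2-fold, with 349 counts in steers against 734 in bulls, a log2FC of -1.19 (-1.38 to -1.01). Its relative NRP1, which pairs with KDR, was far more abundant at 2462 and 2488 counts and lay at -0.14 (-0.22 to -0.06). The remaining 2 of the 4, PGF and FIGF (the older symbol of VEGFD, another ligand of FLT4), did not pass 2-fold at 0.26 and -0.48. Both are named after their values were seen.

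The angiopoietin-like genes encode secreted proteins related to the angiopoietins, most of which do not bind TEK. In the list of 7 angiopoietin and TIE partner genes, 1 was past 2-fold higher and 2 lower in steers. ANGPTL4, an inhibitor of lipoprotein lipase, had 120 counts in steers against 773 in bulls, a log2FC of -2.81 (-3.10 to -2.53). ANGPTL7 was at -1.20 (-1.28 to -1.13) and ANGPTL1 at 1.02 (0.91 to 1.14). ANGPTL2 at 0.53 and the matrix protein gene SVEP1 at 0.20 had the most counts. PTPRB, a phosphatase that acts on TEK and is named here after its values were seen, was at -0.42 (-0.59 to -0.26), on the same side as TEK and TIE1.

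Of 19 genes that carry the VEGF receptor signal inside the cell, 1 passed 2-fold. This was SH2D2A, an adaptor that is also expressed in T cells, with 1 count in steers and 17 in bulls (-4.21, interval -9.59 to -1.54). The median of the list was 0.00, and its most abundant genes were the caveolin gene CAV1 at 0.16 and the chaperone gene HSP90AA1 at 0.49.

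Of 10 Notch and tip cell genes with enough counts, 2 passed 2-fold in opposite directions. CXCR4, a chemokine receptor of tip cells and of leukocytes, had 186 counts in steers against 812 in bulls, a log2FC of -2.25 (-2.49 to -2.02). APLN, the ligand apelin of sprouting vessels, had 13 counts in steers and 0 in bulls. It was 3.98-fold higher with the bulls set to a floor of 3 counts, with an interval from a log2FC of 1.49 upward. The Notch ligand gene JAG1 was at -0.54 (-0.70 to -0.38).

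VEGFA is a target of the hypoxia response, and 15 other genes of that response were measured. They lay on both sides of 0, 9 above and 6 below, with a median of 0.10 beside -0.98 for VEGFA. By counting interval 4 were higher and 6 lower in steers, and with total counts the median was -0.14. SLC2A1, a glucose transporter, was past 2-fold higher in steers at 1.62 (1.36 to 1.87), while ANKRD37 at -1.23 (-2.10 to -0.41) and the mitophagy gene BNIP3 at -1.12 (-1.26 to -0.98) were past it on the lower side. The glycolytic gene ENO1 (0.37) and NDRG1 (0.50) had the most counts.

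Among 11 angiogenesis inhibitors 5 were past 2-fold lower in steers and 0 higher, where 11.5% and 6.73% of all genes were. By counting interval 6 were lower and 3 higher. The median of the list was -0.32, but -0.15 for the 9 genes with at least 50 counts. The chemokines CXCL9, CXCL10 and CXCL11, which interferon induces, had 1, 0 and 0 counts in steers against 147, 177 and 22 in bulls. With steers set to a floor of 3 counts, CXCL10 was 64.2-fold and CXCL11 7.98-fold lower in steers. Their counting intervals reached up to a log2FC of -5.69 and -2.58. CXCL9 was at -7.32 (interval -12.6 to -4.82). ADAMTS8, a metalloprotease, had 0 and 23 counts and was 8.34-fold lower against that floor, with an interval up to a log2FC of -2.65. THBS1, the matrix protein thrombospondin, was far more abundant than these, with 30164 counts in steers against 61472 in bulls, a log2FC of -1.15 (-1.17 to -1.13). SERPINF1, which encodes the inhibitor PEDF, was at 0.78 (0.75 to 0.81).

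In the list of 15 other angiogenic ligands and receptors, 3 passed 2-fold. FGF1 was at 1.36 (0.86 to 1.89) and APLNR, the apelin receptor, at 1.69 (0.80 to 2.66) with 49 and 14 counts. HGF, the hepatocyte growth factor, had 0 counts in steers against 13 in bulls. It was 4.72-fold lower against the floor of 3 counts, with an interval up to a log2FC of -1.73. FGFR1 at 0.34 and PDGFRB at 0.05 had the most counts of that list.

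**Figure D4:**
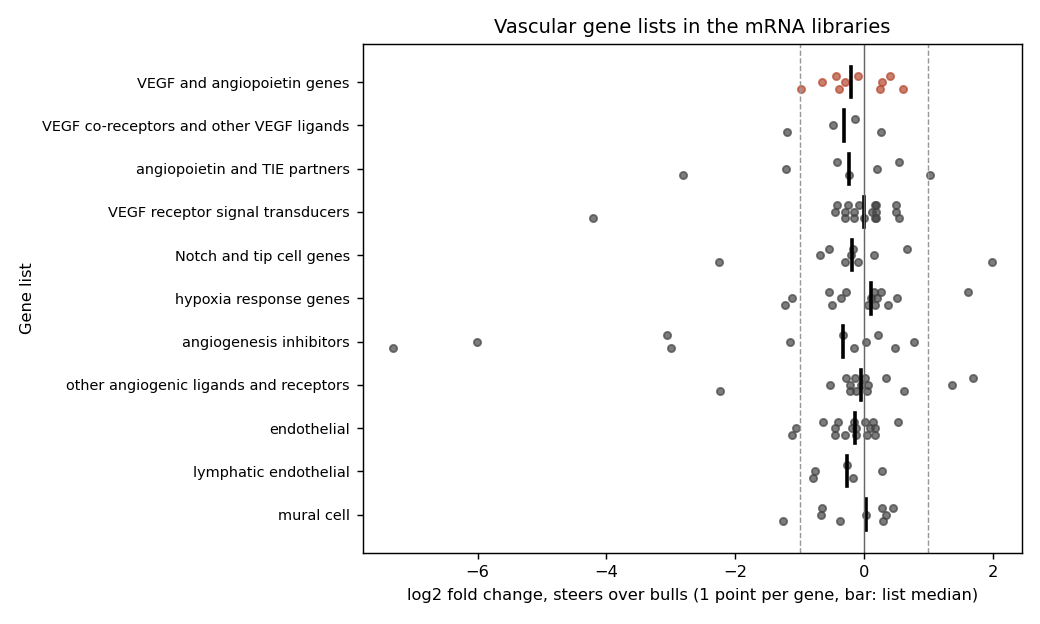
The log2 fold change (steers over bulls) of every gene with at least 10 counts, 1 point per gene, in the set of 10, in 7 lists of related genes and in 3 lists of vascular markers. Black bars are list medians, dashed lines mark 2-fold, and genes at 0 counts in a library are placed with that library at 3 counts. The 10 genes lie within 2-fold, and the endothelial median of -0.15 is close to theirs of -0.20.

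Markers of other cells differed between the pools too, and their part in these results was not tested. All 8 T lymphocyte markers were past 2-fold lower in steers (0.000939% of counts in steers, 0.00927% in bulls), as were 7 of 9 myeloid markers (0.161% and 0.438%) and 2 of the 3 B lymphocyte markers with enough counts. At 0 counts were 1 T lymphocyte marker in steers and 0 in bulls, and of 6 B lymphocyte markers 3 in steers and 2 in bulls. Adipocyte markers were detected in both pools, at 0.282% and 0.405% of counts. Of these 9 markers 1 was past 2-fold higher and 1 lower, with a median of -0.38. By counting interval 2 were higher and 5 lower in steers. Skeletal muscle markers took 0.262% and 0.509% (3 of 10 past 2-fold lower, 1 higher). Fibroblast markers took 9.43% and 5.76% (2 of 8 past 2-fold higher). Epithelial and erythroid markers were scarce in both pools, at no more than 0.00275% of counts, with 3 of 4 and 2 of 2 genes past 2-fold higher.

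The small RNA libraries give a replicated readout of the same tissue. Their counts summed to 10452582 and 8859844 in steers and 7784227 and 6556511 in bulls. miR-126 is the characteristic miRNA of endothelial cells and comes from an intron of EGFL7, and its 3p arm is known to strengthen VEGF signaling by repressing inhibitors of it. Its arms are shown here with the seed (bases 2 to 8) in capitals, from the study's own table of bovine miRNAs, since the 3p arm was called and the share between the arms is compared:
miR-126-3p: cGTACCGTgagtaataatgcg
miR-126-5p: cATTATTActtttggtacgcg

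MiR-126-3p had 11709 and 7300 counts in the steers libraries and 30691 and 19919 in those of bulls, or 1178 ± 460 CPM (SD, n = 2) against 3098 ± 1361 after TMM normalization. Both steers libraries were below both bulls libraries. Its log2FC was -1.40 (SE 0.49), with an adjusted p of 0.0359 from edgeR's quasi-likelihood test over 1073 sequences. Leaving out 1 library ended the call in 3 of 4 cases, as the log2FC was -1.82 without the first library of steers, -1.02 without the second and -0.67 without the first of bulls (adjusted p from edgeR 0.399, 0.837 and 0.393). Without the second library of bulls it was -1.82 and was called. MiR-126-5p was more abundant, at 10150 ± 4441 and 13280 ± 5599 CPM, and its groups overlapped, with a log2FC of -0.39 (SE 0.45, adjusted p = 0.60 from edgeR). The host gene EGFL7, one of the endothelial markers and named here after its values were seen, had 141 and 177 counts in the mRNA pools, a log2FC of -0.45 (-0.78 to -0.12).

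The arms of miR-126 can be compared within a library, free of scaling. The 3p arm made up 10.2% and 10.8% of miR-126 counts in steers and 19.1% and 18.6% in bulls, or 10.5% ± 0.484 against 18.9% ± 0.298 (SD, n = 2). The groups were thus far apart for their spread, and the 3p to 5p ratio was 1.98-fold lower in steers. With 2 libraries per group an exact permutation test cannot go below 0.333, so none was used. Arm ratios differed in other hairpins as well: of the 33 other known hairpins with both arms tested, 9 had a difference at least as large and 19 had groups that did not overlap.

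Across the list of 14 miRNAs linked to endothelium, hypoxia or angiogenesis, miR-126-3p was the only call and 3 had an unadjusted p under 0.05 (miR-126-3p, miR-296-3p and miR-296-5p). Of all 1073 sequences tested 14.2% were called, and 27.3% had an unadjusted p under 0.05, compared with 21.4% of the list. Groups did not overlap for 7 of the 14, compared with 58.2% of all sequences. MiR-210, which hypoxia induces, did not pass the test, at 139 ± 7.13 CPM in steers and 130 ± 19.0 in bulls (log2FC 0.10, 95% interval -0.82 to 1.03). MiR-296-3p was at 0.97 and miR-296-5p at -1.12 (adjusted p from edgeR 0.150 and 0.149). MiR-221 and miR-222, shown as the only members of the list with a common seed, were at -0.76 and -0.13 and did not pass the test. These 4 miRNAs are named after their values were seen. The common seed is in capitals:
miR-221: aGCTACATtgtctgctgggttt
miR-222: aGCTACATctggctactgggt

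**Figure D5:**
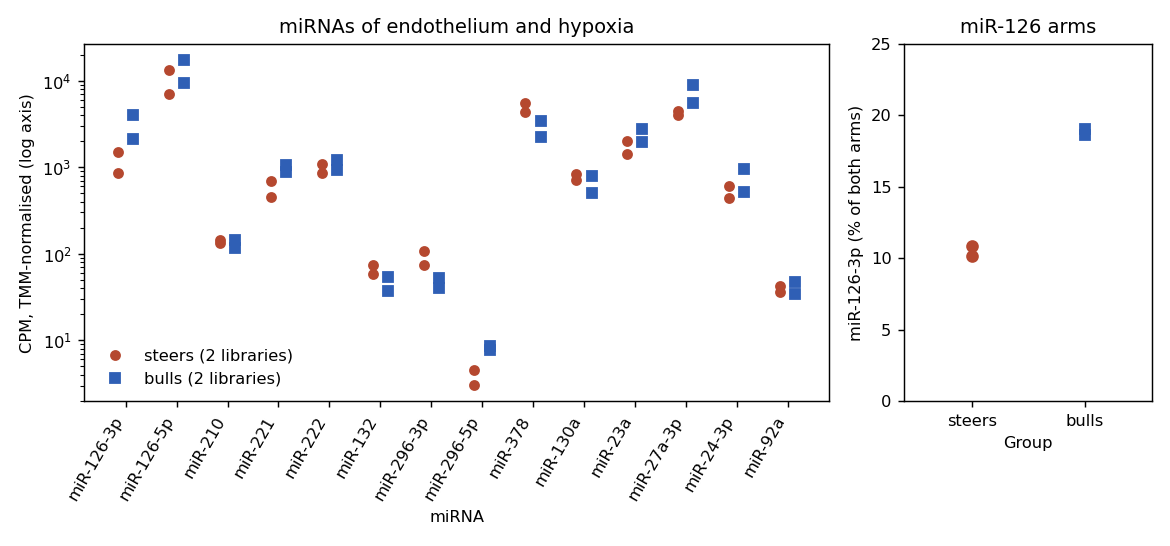
Left, TMM-normalized CPM (log axis) of the 14 miRNAs in each of the 2 libraries of steers (circles) and 2 of bulls (squares). Right, the share of miR-126 counts from its 3p arm in each library, at 10.2% and 10.8% in steers and 19.1% and 18.6% in bulls.

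The miRNAs within FLT1 were scarcely detected, miR-2300a-5p with 3 counts in the second library of steers and 0 in the others, and miR-2300b-3p with 2 counts in the first library of bulls alone. They are shown because each is the reverse complement of the other, so that they mark opposite strands of FLT1. Seeds are again in capitals:
miR-2300a-5p: tCCTCAGCtagttttgtctccc
miR-2300b-3p: gGGAGACAaaactagctgagga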

How the data were processed

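Per the labels, mRNA was read on an Ion Proton sequencer and small RNA on an Illumina HiSeq. The authors removed adaptors and low-quality reads, aligned mRNA reads to the bovine genome with MapSplice and small RNA reads to miRBase and the genome with BWA, and deposited raw counts per gene or mature sequence. The labels also name a human genome build, so no coordinates were used. The counting program is not given in the sources used here. The mRNA libraries hold 12677375 (steers) and 9868415 (bulls) counts.

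The 10 genes, the gene and miRNA lists and the ratio pairs were chosen with earlier results of these data known. Genes with at least 10 counts over both mRNA libraries were kept. Fold changes used median-of-ratios size factors (1.04 and 0.959) with 95% Clopper-Pearson intervals, and ratios used conditional exact intervals (scipy 1.17.1). A gene at 0 counts in a library was set there to a floor of 3 counts. Its counting interval can reach nearer to 0 than the value so obtained. Small RNA sequences passing filterByExpr were fitted in edgeR 4.0.16 with TMM and a quasi-likelihood test and Benjamini-Hochberg adjustment, and a call needed both a 2-fold difference and an adjusted p under 0.05. The p-values measure the spread between these libraries only. Both steps were also run on simulated counts. These had counting error alone for mRNA and the spread fitted to these libraries for small RNA. The runs therefore do not test how far pools of animals vary. From each related or vascular list, the genes named are up to 4 past 2-fold with the largest differences and the 2 with the most counts; of the miRNAs, those called, both arms of miR-126 and miR-210. Alternatives were other scalings, filters and thresholds, assumed coefficients of variation between pools, DESeq2 1.42.0, a replicate block and leaving out libraries. Overlapping genes were read from RefSeq's ARS-UCD2.0 table, in which all 10 symbols matched.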

Additional observations from a re-analysis of the deposited data

How the results depend on the processing

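The counts of genes past 2-fold or beyond counting error changed with the threshold, the error assumed and total-count scaling. Of the 10 genes, 0 passed 2-fold, 1 with total counts (VEGFA) and 3 at a 1.5-fold threshold. The intervals of 7 left out equal levels, and of 3 (VEGFA, VEGFC and TEK), 1 (VEGFA) and 0 when a biological coefficient of variation of 0.1, 0.2 or 0.4 between pools was assumed. With total counts the intervals of 5 left out equal levels (VEGFA, KDR, FLT4, TEK and TIE1). The median was then -0.24 for signal transducers and -0.21 for mural markers, and small positive values, such as those of PECAM1 and ENG, turned negative. Of the ratio changes 9 excluded 1, and 2 did with 0.2. With TMM, upper-quartile or endothelial scaling all 10 fold changes stayed within their counting intervals, and with total counts 5 left them (VEGFB, FLT1, KDR, TEK and TIE1). The depth of 22 counts over both pools for ANGPT1 limits that gene most.

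Of the 14 miRNAs 1 was called, but 0 with total counts, upper-quartile scaling or no filter on low counts, and between 0 and 1 with a library left out. Over all sequences these 3 settings called 1 of 1073, 153 of 1073 and 70 of 8303, so few calls were made of any sequence with total counts. The call made without the first library of bulls was of another miRNA than miR-126-3p. When a library is left out, the lone library of its group is assumed to vary like the others. The log2 fold change of miR-126-3p was -1.84, -1.21 and -1.47 under those 3 settings (adjusted p from edgeR 0.0693, 0.0952 and 0.385) and -1.32 with DESeq2 (adjusted p 0.0432). With 1 library left out, that of miR-126-5p ran from -0.88 to 0.32, changing sign without the second library of steers (0.03) and the first of bulls. That of miR-210 turned to -0.36 with total counts and ran from -0.072 (without the second library of bulls) to 0.45. A replicate block called 2 of the 14 and 252 of all sequences instead of 152, with miR-126-3p at -1.38 (adjusted p 0.0026 from edgeR). The labels give no shared origin to the replicate numbers, so the pairing was not used, although deviations of same-numbered libraries correlated at 0.30.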
